A study of Mus musculus with 37 samples.

Results

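CDC5L is the Myb-like scaffold of the PRP19 complex, and the mRNAs of 9 genes of this complex were followed in mouse oocytes, early embryos and embryonic day 6.5 lineages with and without maternal Bap1. The members were taken by symbol from the 55401 genes of each expression table, and all 9 were found in both tables. They were 6 core members (Cdc5l, Prpf19, Plrg1, Bcas2, Ctnnbl1, Cwc15) and 3 genes whose proteins join the complex on the spliceosome (Crnkl1, Isy1, Xab2). Cdc5l was selected on its measured FPKM in knockout oocytes, so its difference in fully grown oocytes and MII eggs is given as a description without a test. The other 8, called partners here, were chosen by their known membership.

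Total RNA libraries covered 5 stages: the fully grown oocyte (FGO), the ovulated MII egg, and late 1-cell (L1C), early 2-cell (E2C) and late 2-cell (L2C) embryos. Control females were Bap1 flox/flox, and knockout females were Bap1 flox/flox with Gdf9-iCre, a recombinase driven by an oocyte promoter. Every group thus carried the floxed allele, the knockout groups alone carried iCre, and loss of Bap1 cannot be told apart from the presence of iCre. Embryos came from these females crossed to B6 males, and the poly(A) libraries of embryonic day 6.5 came from crosses to PWK males, so that knockout embryos are maternal knockouts with a paternal genome from B6 or PWK. FGO, MII, L1C and L2C had 2 control and 3 knockout libraries each, and E2C had 3 and 3. At day 6.5, epiblast (EPI), which forms the embryo proper, and visceral endoderm (VE) had 2 and 2, while extraembryonic ectoderm (EXE) had a lone control library and 2 knockout ones. Animal ages and the number of cells pooled are not given in the sources used here, and nothing says that replicates came from separate animals, so that p-values measure the spread between these libraries.

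The unit of every level below is FPKM, fragments per kilobase of transcript scaled to the library, which corrects for gene length and allows levels of different genes to be compared. Its sum was 300668 to 430784 per library in the 26 total RNA libraries and 593705 to 704522 in the 11 poly(A) libraries, and the number of sequenced reads is not known from it. Bap1 itself was 16.3 to 29.9 FPKM (median 24.8) in the 11 control total RNA libraries and 3.76 to 11.7 (median 5.51) in the 15 knockout ones, with no overlap. All 10 oocyte markers reached 1 FPKM in every early group. The 12 granulosa and cumulus markers summed to 25.8 to 27.8 FPKM in control and 16.2 to 18 in knockout FGO, with 3 of 12 reaching 1 FPKM in each. Ptx3 was at 0 in both genotypes of FGO, and Amh and Amhr2 were at 0 in knockout FGO. The control sums were also the higher ones at the later stages. They were 24.8 to 25.2 against 17.3 to 17.6 in MII and 23.4 to 30.3 against 14 to 17.5 in L1C. In E2C they were 20.7 to 23.2 against 11.6 to 13, and in L2C 47.7 to 49 against 23.3 to 34.6. Their part in the results was not tested.

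The PRP19 complex joins the spliceosome when it is activated for catalysis and stays through both splicing steps. PRPF19, a U-box ubiquitin ligase, is its founding subunit, CDC5L and the WD-repeat protein PLRG1 bind it directly, and BCAS2 (also known as SPF27) completes the core. CTNNBL1 and CWC15 associate with this core, while CRNKL1, ISY1 and XAB2 are part of the wider assembly, and XAB2 also acts in transcription-coupled DNA repair. In the oocyte, transcription stops at full growth, so that the mRNAs of the egg and zygote are largely stored maternal ones until the embryonic genome is activated at the 2-cell stage.

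Cdc5l (ENSMUSG00000023932.9, chr17:45391884-45433737 in GRCm38, minus strand) was low in control oocytes and high in knockout oocytes. In FGO it was 2.02 and 1.56 FPKM in the control libraries and 31.0, 18.5 and 28.1 in the knockout libraries. In MII eggs it was 1.61 and 2.71 in controls against 30.7, 25.1 and 27.7 in knockouts. The ranges were far apart, and the ratio of mean FPKM was 14.5 in FGO and 12.9 in MII. These stages chose the gene.

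The difference was also present after fertilization, in libraries that the choice did not use but whose values were already known. Since mRNAs of the zygote are largely stored maternal ones, the L1C test is not independent of the oocyte values that chose Cdc5l. The E2C test is not shown to be independent of them either. Between L1C and E2C knockouts Cdc5l differed by -0.35 (SE 0.28, adjusted p = 0.353 by limma). L1C controls had 1.18 and 1.91 FPKM of Cdc5l and knockouts 37.0, 44.4 and 43.7, a ratio of 26.9. The fitted difference was 4.08 on the log2(FPKM + 1) scale (SE 0.21), with an adjusted p of 2.61e-11. E2C controls had 2.13, 3.78 and 2.80 FPKM and knockouts 18.7, 43.8 and 41.2, a ratio of 11.9 (log2 difference 3.12, SE 0.36, adjusted p = 1.03e-05). The first E2C knockout replicate was thus lower than the other two, though above every control.

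In L2C embryos the control level had come up to the knockout level. Controls had 21.2 and 23.5 FPKM of Cdc5l and knockouts 28.1, 26.9 and 22.4, and the ranges overlapped. The ratio was 1.15 (log2 difference 0.19, SE 0.34, adjusted p = 0.714). From L1C to E2C the control level differed by 0.61 (SE 0.30, adjusted p = 0.101), which passed with values centred on library medians (0.76, adjusted p = 0.0327). From E2C to L2C it rose by 2.60 on the log2 scale (SE 0.36, adjusted p = 3.67e-06), while the knockout level differed by -0.32 (SE 0.33, adjusted p = 0.464). The change of the knockout effect between these stages was -2.92 (SE 0.49, adjusted p = 0.000253). It starts from the E2C effect, which is not shown to be independent of the oocyte values that chose Cdc5l.

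**Figure D1:**
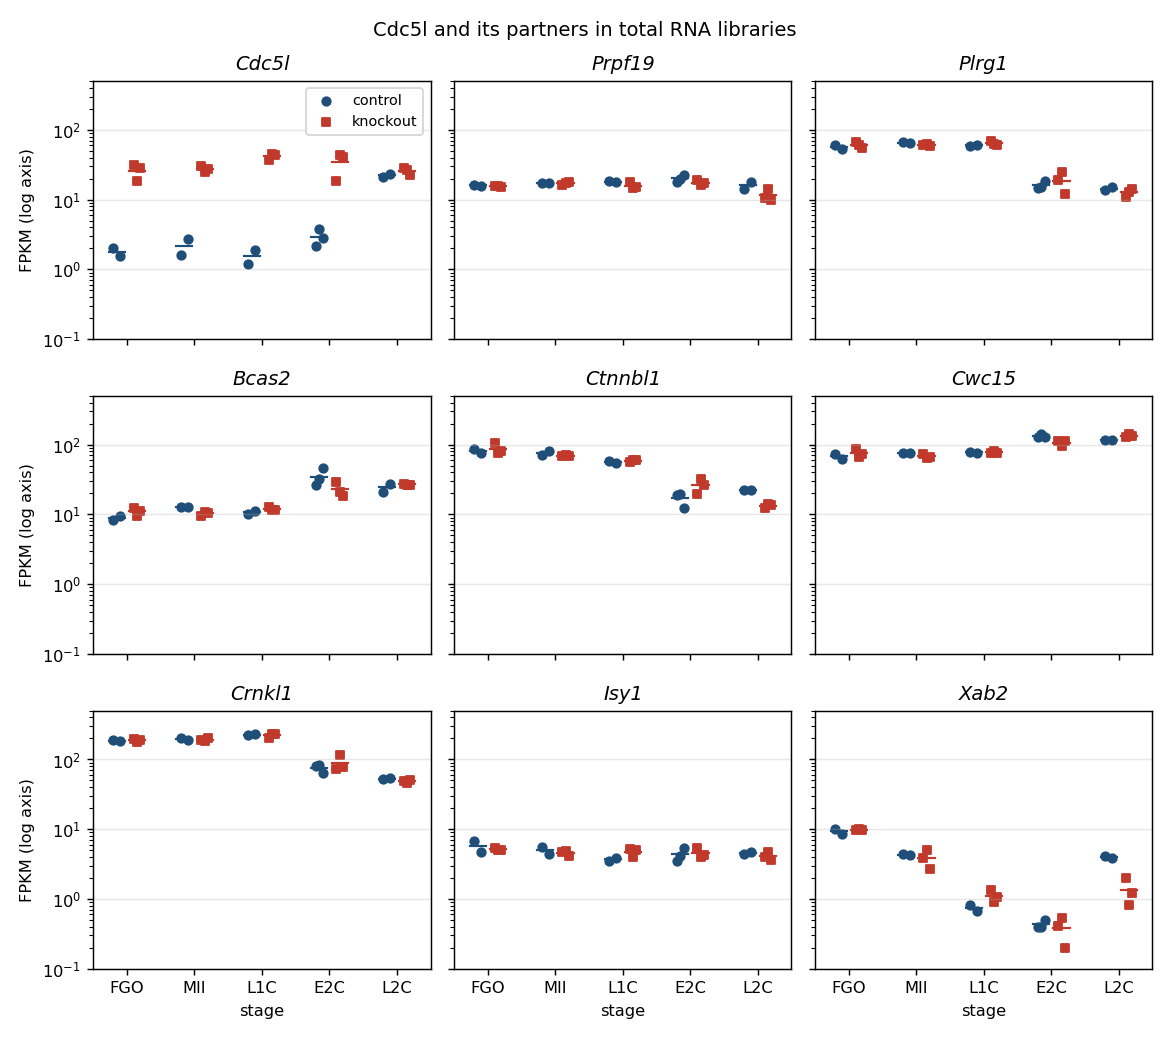
FPKM (log axis) of each of the 9 genes in every total RNA library at 5 stages, with control libraries as circles, knockout libraries as squares and group means as short lines. Cdc5l controls lie between 1.18 and 3.78 FPKM until E2C and at 21.2 and 23.5 in L2C, whereas its knockout libraries lie between 18.5 and 44.4 at all 5 stages.

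The promoter of Cdc5l is shown because Cdc5l is the member that was selected on its level in knockout oocytes. The window is the 220 bases that precede the annotated start of Cdc5l, from RefSeq sequence of GRCm38.p6 (chr17:45433738-45433957, read on the minus strand), and the capitals mark a TGACGTCA, the palindrome known as a cyclic AMP response element, and a CCAAT box.
Cdc5l: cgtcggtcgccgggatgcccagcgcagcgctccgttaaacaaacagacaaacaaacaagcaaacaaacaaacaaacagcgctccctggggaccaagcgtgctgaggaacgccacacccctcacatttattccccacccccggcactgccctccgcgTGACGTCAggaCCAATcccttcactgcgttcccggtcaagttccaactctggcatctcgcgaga
Motifs were searched on both strands in the RefSeq windows of all 9 members, which reach from before to just after a start, and in all 32851 windows of that table. TGACGTCA, which was added to the search after the Cdc5l window had been read, was in the windows of Cdc5l, Bcas2 and Xab2 and in 1.79% of all windows. CCAAT was in 6 of 9 members' windows and in 37.4% of all, GGGCGG in 5 and 35.7%, CCGGAAG in 4 and 8.86%, CACGTG in 1 and 7.15%, and GCATGCG in 0 and 3.58%. A match describes letters in a window and is not a measured site.

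Part of the Cdc5l sequence is repeated elsewhere in the genome. Of its exonic words of 50 bases, 36.6% also occur in other annotated genes, and 10 gene models on chromosome 10, between positions 118238372 and 118354105, each hold 23.5% to 29.2% of them. These copies summed to at most 0.127 FPKM in control FGO, MII and L1C libraries and to 0.567 to 2.03 in the knockout ones. In E2C they summed to 3.04 to 5.52 in controls and 2.97 to 8.41 in knockouts, and in L2C to 4.00 to 5.15 and 12.4 to 15.5. At embryonic day 6.5 they stayed at or below 0.118 FPKM. How reads were divided between Cdc5l and these models is not given in the sources used here. With the copies added to Cdc5l, a setting chosen after seeing the data, the log2 difference was 3.26 in FGO, 3.22 in MII, 4.05 in L1C, 2.37 in E2C (adjusted p = 0.000172) and 0.47 in L2C (adjusted p = 0.32). In L2C the summed level was 25.0 and 26.4 FPKM in controls and 38.4, 38.2 and 31.4 in knockouts, which did not overlap. The summed level of the controls rose from L1C to E2C by 1.45 (adjusted p = 0.000439) and from E2C to L2C by 1.90 (adjusted p = 0.000159), so that the rise was then spread over both steps. The change of the effect from E2C to L2C was then -1.90 (adjusted p = 0.00928), and that from L1C to E2C was -1.68 (adjusted p = 0.0286), compared with -0.96 (SE 0.41, adjusted p = 0.237) for Cdc5l alone.

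Of the genes beside Cdc5l, Supt3, Runx2, Aars2 and the noncoding B230354K17Rik were tested in total RNA. None of the 4 passed by limma in FGO or MII, beside 13.9% and 16.8% of all genes, so that few calls would be looked for among 4. An unadjusted p under 0.05 was found for 0 of the 4 in FGO and for 2 in MII, Supt3 and B230354K17Rik. Of all 15184 tested genes, 4079 in FGO and 4226 in MII had such a p. Of the 3 nearest protein-coding genes on each side, Spats1, 6.84 kb away, was at most 0.089 FPKM in FGO, MII, L1C and E2C libraries, and Clic5 and Tcte1 were at most 0.0529 in all 26 total RNA libraries but 1, in which Tcte1 was 0.0781. Runx2, a transcription factor of bone formation, was 0.76 to 3.35 FPKM in total RNA libraries and did not pass at any of the 5 stages (adjusted p = 0.173 to 0.817). Supt3, which encodes a subunit of the SAGA coactivator, had 36.0 and 26.7 FPKM in control and 41.0, 37.5 and 36.7 in knockout FGO (log2 difference 0.30, SE 0.15, adjusted p = 0.204). All 3 knockout libraries were above both controls there, and also in MII and L1C. In MII, Supt3 had 30.9 and 26.2 FPKM in controls and 36.6, 36.8 and 37.8 in knockouts (0.37, adjusted p = 0.061). In L1C it had 30.1 and 27.4 against 33.6, 36.2 and 35.0 (0.28, adjusted p = 0.238), and in E2C the ranges overlapped. Supt3 rose in L2C knockouts by 0.88 (SE 0.24, adjusted p = 0.00773). Aars2, the mitochondrial alanyl-tRNA synthetase, was 0.49 higher in L1C knockouts (SE 0.14, adjusted p = 0.0164), at 1.07 and 1.28 FPKM in controls and 2.47, 2.23 and 1.5 in knockouts. B230354K17Rik, a noncoding RNA on the opposite strand that overlaps the Cdc5l start by 140 bases, did not pass the test in FGO, MII, L1C or E2C. In MII its knockout libraries (0.885, 0.907 and 0.952 FPKM) were all above its controls (0.576 and 0.633, adjusted p = 0.133). In L2C it had 12.1 and 13.0 FPKM in controls and 8.74, 7.39 and 7.90 in knockouts (-0.59, SE 0.20, adjusted p = 0.0296).

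In oocytes and zygotes none of the 8 partners passed the test by limma for a knockout effect in FGO, MII or L1C. Of the 15184 tested genes, 13.9%, 16.8% and 17.6% did. An unadjusted p under 0.05 was found for 1, 1 and 0 partners, beside 4079, 4226 and 4436 of all tested genes. Their log2 differences lay between -0.12 and 0.28 in FGO (median 0.073), -0.29 and -0.005 in MII (median -0.117) and -0.18 and 0.27 in L1C (median 0.0705), beside a median of 0 to 0.011 over all genes. Bcas2 had the lowest adjusted p of the partners in FGO and MII, and in opposite directions. It was 8.24 and 9.47 FPKM in control and 12.4, 9.51 and 11.2 in knockout FGO (0.28, SE 0.12, adjusted p = 0.124), and 12.6 and 12.9 in control and 9.61, 10.9 and 10.5 in knockout MII eggs (-0.29, SE 0.11, adjusted p = 0.0726). Single partners passed under some settings: Bcas2 in FGO with median centring (0.37, adjusted p = 0.039), Cwc15 in MII with quantile normalization (-0.22, adjusted p = 0.0304), and Prpf19 in L1C without the first knockout replicate (-0.25, adjusted p = 0.0438).

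Prpf19 (chr19:10895231-10909559, plus strand), the ligase that names the complex, kept a narrow range of levels, at 16.3 and 15.9 FPKM in control and 15.7, 15.9 and 15.2 in knockout FGO, so that the groups differed by less than 1 FPKM. Plrg1 (chr3:83055522-83072355, plus strand) had 60.6 and 53.0 FPKM in control and 65.9, 59.7 and 55.5 in knockout FGO. Ctnnbl1 (chr2:157737401-157891614, plus strand) had 85.9 and 76.6 against 104, 76.6 and 80.8. These values overlapped between genotypes. Cwc15 (chr9:14500617-14510577, plus strand) had 74.3 and 62.7 FPKM in control and 86.2, 66.1 and 74.4 in knockout FGO, and Bcas2 lies at chr3:103171655-103179166 on the plus strand.

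Among the genes of the wider assembly, Crnkl1 (chr2:145917479-145935014, minus strand) was the most abundant member in FGO, at 188 and 183 FPKM in controls and 195, 177 and 190 in knockouts. Isy1 (chr6:87814269-87838798, minus strand) had 6.82 and 4.71 FPKM in control and 5.42, 4.99 and 5.09 in knockout FGO, and 10.2% of its words are shared with the overlapping model Gm45140. Xab2 (chr8:3608421-3621316, minus strand) had 10.2 and 8.59 FPKM in controls and 9.66, 9.92 and 9.88 in knockouts. Of its words, 9.75% overlap Camsap3 on the opposite strand, and whether counting used the strand is not given. The levels of these 3 genes overlapped between genotypes.

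In E2C embryos, 0 of 8 partners passed the test by limma, beside 13.5% of all genes. Of the 8, 3 had an unadjusted p under 0.05, beside 3926 of all 15184 tested genes. Ctnnbl1 had 19.2, 19.8 and 12.4 FPKM in controls and 19.6, 31.8 and 26.6 in knockouts (0.58, SE 0.20, adjusted p = 0.0592). Bcas2 had 26.2, 31.9 and 46.5 in controls and 29.1, 20.7 and 18.6 in knockouts (-0.58, SE 0.21, adjusted p = 0.0693). Cwc15 had 128, 144 and 129 in controls and 113, 95.1 and 113 in knockouts, with no overlap (-0.32, SE 0.15, adjusted p = 0.188). Ctnnbl1 passed the test when values were rescaled to TPM (0.71, adjusted p = 0.0286) or centred on library medians (0.66, adjusted p = 0.0151), and Bcas2 under quantile normalization (-0.60, adjusted p = 0.0465). Without the first E2C knockout replicate, Ctnnbl1 (0.76, adjusted p = 0.0227) and Bcas2 (-0.76, adjusted p = 0.0284) both passed, and Bcas2 also without the first control replicate (-0.76, adjusted p = 0.0421). The 7 markers of 2-cell genome activation summed to 231 to 305 FPKM in control and 120 to 220 in knockout E2C libraries, and their part in these values was not tested.

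**Figure D2:**
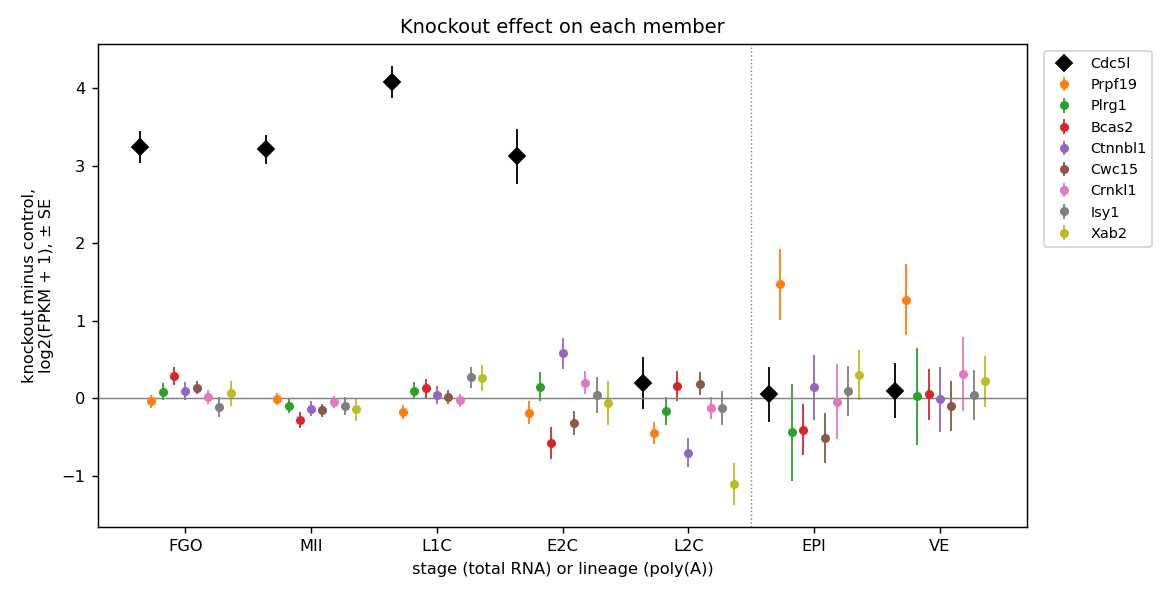
Difference between knockout and control of each member, on the log2(FPKM + 1) scale with its SE, for the 5 stages of total RNA and for EPI and VE, which were fitted apart. Cdc5l (diamonds) is at 3.12 to 4.08 from FGO to E2C and at 0.19 in L2C, and every partner (circles) lies between -0.58 and 0.58 from FGO to E2C.

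Partners passed the test for a knockout effect in L2C, the stage at which the Cdc5l ranges overlapped. Of the 8, 3 fell and 0 rose in L2C knockouts, a share close to the 34.2% of all genes that passed there. Ctnnbl1 had 22.4 and 22.3 FPKM in controls and 12.4, 14.3 and 13.5 in knockouts, with no overlap, a ratio of 0.598 (-0.70, SE 0.19, adjusted p = 0.00628). Xab2 had 4.10 and 3.82 in controls and 2.02, 0.828 and 1.22 in knockouts, a ratio of 0.342 (-1.10, SE 0.27, adjusted p = 0.00318). Prpf19 had 14.3 and 17.9 FPKM in controls and 10.6, 14.2 and 10.0 in knockouts, so that the highest knockout library nearly reached the lowest control. Its ratio was 0.72 (-0.45, SE 0.14, adjusted p = 0.0178), and it did not pass without the second L2C control replicate (-0.30, adjusted p = 0.24), the first knockout replicate (-0.40, adjusted p = 0.0504) or the third (-0.36, adjusted p = 0.0985), with TPM scaling (-0.33, adjusted p = 0.0875) or with only this stage fitted (adjusted p = 0.0839).

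Of the other 5 partners in L2C, Cwc15 had 118 and 117 FPKM in controls and 127, 142 and 133 in knockouts (0.19, SE 0.14, adjusted p = 0.345). Crnkl1 had 52.8 and 53.5 against 48.8, 45.9 and 50.9 (-0.13, SE 0.14, adjusted p = 0.531). Plrg1, Bcas2 and Isy1 overlapped between genotypes, with log2 differences of -0.17, 0.16 and -0.12. When no filter on low values was used, Ctnnbl1 (adjusted p = 0.0923), Xab2 (adjusted p = 0.054) and Prpf19 (adjusted p = 0.087) all missed the threshold in L2C. Markers of other states moved with genotype at this stage: the 10 oocyte markers summed to 531 to 558 FPKM in control and 867 to 994 in knockout L2C libraries, and the 7 markers of 2-cell activation to 128 to 135 and 363 to 456. Their part in the partners' values was not tested.

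The knockout effect itself changed between E2C and L2C for 1 partner, Ctnnbl1, by -1.28 (SE 0.27, adjusted p = 0.00215), beside 18.9% of all genes. Of its knockout libraries, 2 of 3 were above every control in E2C and all 3 were below both controls in L2C. The effect on Xab2 changed by -1.04 and that on Prpf19 by -0.26 between these stages, which did not pass. Xab2 passed without the first L2C knockout replicate (-1.24, adjusted p = 0.0324), and Bcas2 without the first E2C control (0.92, adjusted p = 0.0374) or first E2C knockout replicate (0.92, adjusted p = 0.032). No partner passed for the steps from FGO to MII (0% of all genes), from MII to L1C (0.198%) or from L1C to E2C (3.35%) by limma. The partners with an unadjusted p under 0.05 numbered 2, 1 and 2, beside 1678, 1904 and 2471 of all 15184 tested genes.

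Over development in the controls, some members rose and others fell. From FGO to MII, Bcas2 rose by 0.49 and Xab2 fell by 0.97 on the log2 scale, 2 of 8 partners beside 5.39% of all genes. Bcas2 did not pass in this step when any of the 4 libraries was left out (adjusted p = 0.0513 to 0.232), without stage weights (adjusted p = 0.488) or with only these stages fitted (adjusted p = 0.0584). From MII to L1C, Ctnnbl1 fell by 0.41 and Xab2 fell by 1.60, beside 25.4% of all genes. Ctnnbl1 did not pass there with median centring (-0.23, adjusted p = 0.111), without stage weights (adjusted p = 0.189), or without the second MII control replicate (-0.32, adjusted p = 0.147) or either L1C control replicate (adjusted p = 0.0509 and 0.13). From L1C to E2C, 5 of 8 partners passed beside 47.2% of all genes. Plrg1 fell by 1.84 (SE 0.16, adjusted p = 6.54e-09), from 59.3 and 61.2 FPKM to 14.8, 15.3 and 18.4. Ctnnbl1 fell by 1.71 and Crnkl1 fell by 1.56, while Bcas2 rose by 1.56 and Cwc15 rose by 0.77.

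From E2C to L2C, Xab2 rose by 1.79 (SE 0.29, adjusted p = 2.4e-05), from 0.401, 0.395 and 0.501 FPKM to 4.10 and 3.82, and Crnkl1 fell by 0.50 (SE 0.15, adjusted p = 0.00849, and 0.0541 without a filter on low values). These were 2 of 8 beside 51.7% of all genes. With values centred on library medians, Prpf19, Bcas2 and Cwc15 also passed in this step, all lower. Low values near 1 FPKM move least on this scale because of the added 1, so that the Xab2 changes are understated.

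The same steps were tested within the knockouts. From FGO to MII, Ctnnbl1 fell by 0.32 and Xab2 fell by 1.17 (13.8% of all genes passed). Ctnnbl1 did not pass in this step without a filter on low values (adjusted p = 0.0694), with TPM scaling (0.056), median centring (0.063), no stage weights (0.338) or only these stages fitted (0.0866), or without the first FGO knockout replicate (-0.18, adjusted p = 0.211) or any MII knockout replicate (adjusted p = 0.0628 to 0.0806). From MII to L1C Xab2 fell by 1.2 (16.4% of all genes). Cdc5l was 0.57 higher in L1C than in MII knockouts. From L1C to E2C, Plrg1 fell by 1.79, Crnkl1 fell by 1.33, Ctnnbl1 fell by 1.18 and Xab2 fell by 0.61, while Bcas2 rose by 0.86 and Cwc15 rose by 0.44, which made 6 of 8 beside 41.7% of all genes. Xab2 did not pass there without a filter (adjusted p = 0.0741), with median centring (adjusted p = 0.126), or without knockout replicate 1 of L1C or replicates 1 or 3 of E2C (adjusted p = 0.0786 to 0.158). From E2C to L2C, Ctnnbl1 fell by 0.89, Crnkl1 fell by 0.83, Prpf19 fell by 0.56 and Plrg1 fell by 0.47, and Xab2 rose by 0.75, 5 of 8 beside 45.5%. Plrg1 did not pass in this step without a filter (adjusted p = 0.12), with only these stages fitted (0.0829), or without the first or second E2C or L2C knockout replicate (-0.24 without the second E2C replicate, adjusted p = 0.28). Xab2 did not pass without a filter (adjusted p = 0.0992), with median centring (0.44, adjusted p = 0.151), with quantile normalization (0.46, adjusted p = 0.161), or without knockout replicates 1 or 3 of E2C or replicate 1 of L2C (adjusted p = 0.0531 to 0.118). Cdc5l in the knockout was already at its high level before these steps.

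Within a library, the order of the members shows how far Cdc5l departed from the rest. Cdc5l was the lowest of the 9 in all 4 control FGO and MII libraries and the eighth in the 5 control L1C and E2C libraries, where only Xab2 was lower. Among the 6 core members it was the lowest in all 9 of these libraries. In knockout FGO, MII and L1C libraries it ranked 5 of 9, and in knockout E2C libraries between 3 and 7. In L2C it ranked 4 in the controls and 3 to 4 in the knockouts.

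Relative to the median FPKM of its 8 partners, Cdc5l stood at 0.0452 to 0.0524 in control FGO, 0.0384 to 0.067 in control MII, 0.0305 to 0.0526 in control L1C and 0.114 to 0.192 in control E2C. The ratio was 0.488 to 0.796 in knockout FGO, 0.621 to 0.798 in knockout MII, 0.993 to 1.18 in knockout L1C and 0.964 to 2.3 in knockout E2C. In L2C it was 1.17 to 1.2 in controls and 1.61 to 2.4 in knockouts. From FGO to L1C the control ratio was thus far under 1, while the knockout ratio was under 1 in FGO and MII and near 1 in L1C. These levels follow from the value that selected the gene in FGO and MII and are given as a description.

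**Figure D3:**
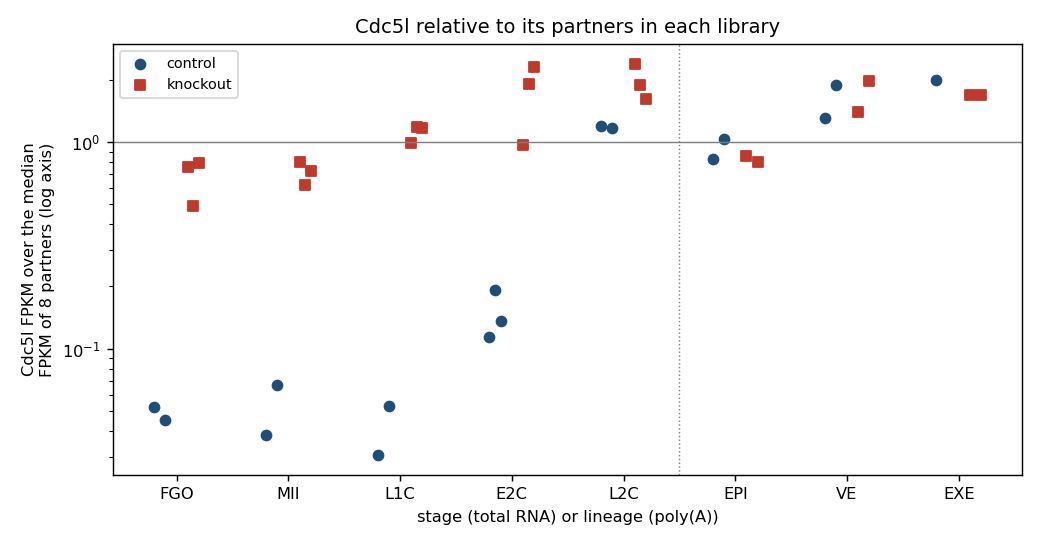
FPKM of Cdc5l divided by the median FPKM of the 8 partners in each library (log axis), with control libraries as circles and knockout libraries as squares, for the 5 stages of total RNA and the 3 lineages of poly(A) RNA. Controls lie at 0.0305 to 0.192 from FGO to E2C, and all libraries of L2C and of embryonic day 6.5 lie between 0.802 and 2.4.

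At embryonic day 6.5 Cdc5l did not differ detectably between genotypes. In EPI it was 32.8 and 50.8 FPKM in controls and 34.5 and 51.6 in knockouts (log2 difference 0.05, SE 0.36, adjusted p = 1). In VE it was 35.6 and 35.2 in controls and 38.1 and 37.6 in knockouts (0.10, SE 0.36, adjusted p = 1). In EXE the control library had 58.7 FPKM and the knockout libraries 58.5 and 71.2, which was not tested with 1 control. The ranges overlapped in EPI and EXE, and in VE the knockouts were above the controls by a ratio of 1.07. Bap1 mRNA itself was not reduced in the knockout groups of this day. It was 22.61 and 14.14 FPKM in control and 21.77 and 33.77 in knockout EPI. In VE it was 14.02 and 15.62 against 18.35 and 19.4, and in EXE 21.75 against 23.99 and 23.12.

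None of the 8 partners passed the test for a knockout effect in EPI or VE, where 0% and 0.00748% of 13376 genes did by limma. In each lineage 1 partner, Prpf19, had an unadjusted p under 0.05, beside 306 of all genes in EPI and 170 in VE. Prpf19 had 12.3 and 10.5 FPKM in control and 46.4 and 23.6 in knockout EPI (1.47, SE 0.46, adjusted p = 1), and 3.12 and 1.22 in control and 7.03 and 5.63 in knockout VE (1.27, SE 0.46, adjusted p = 1). In EXE it had 6.68 in the control and 9.11 and 10.9 in the knockouts. All 6 knockout libraries were thus above the controls of their lineage. The unadjusted p was 0.0106 in EPI and 0.0212 in VE, neither of which passed adjustment over all genes, and EXE was not tested. Cwc15 was 198 and 239 FPKM in control and 134 and 172 in knockout EPI (-0.52, SE 0.32, adjusted p = 1), and Bcas2 was 309 and 370 against 225 and 288 (-0.41, SE 0.33, adjusted p = 1). Markers of maternal decidua and blood (8 genes) summed to 0.0331 to 0.516 FPKM in control VE and 0.374 to 35.1 in knockout VE. In EPI the sums were 2.53 to 4.05 in controls and 2.81 to 3.69 in knockouts. The part of these markers in the knockout comparisons was not tested.

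**Figure D4:**
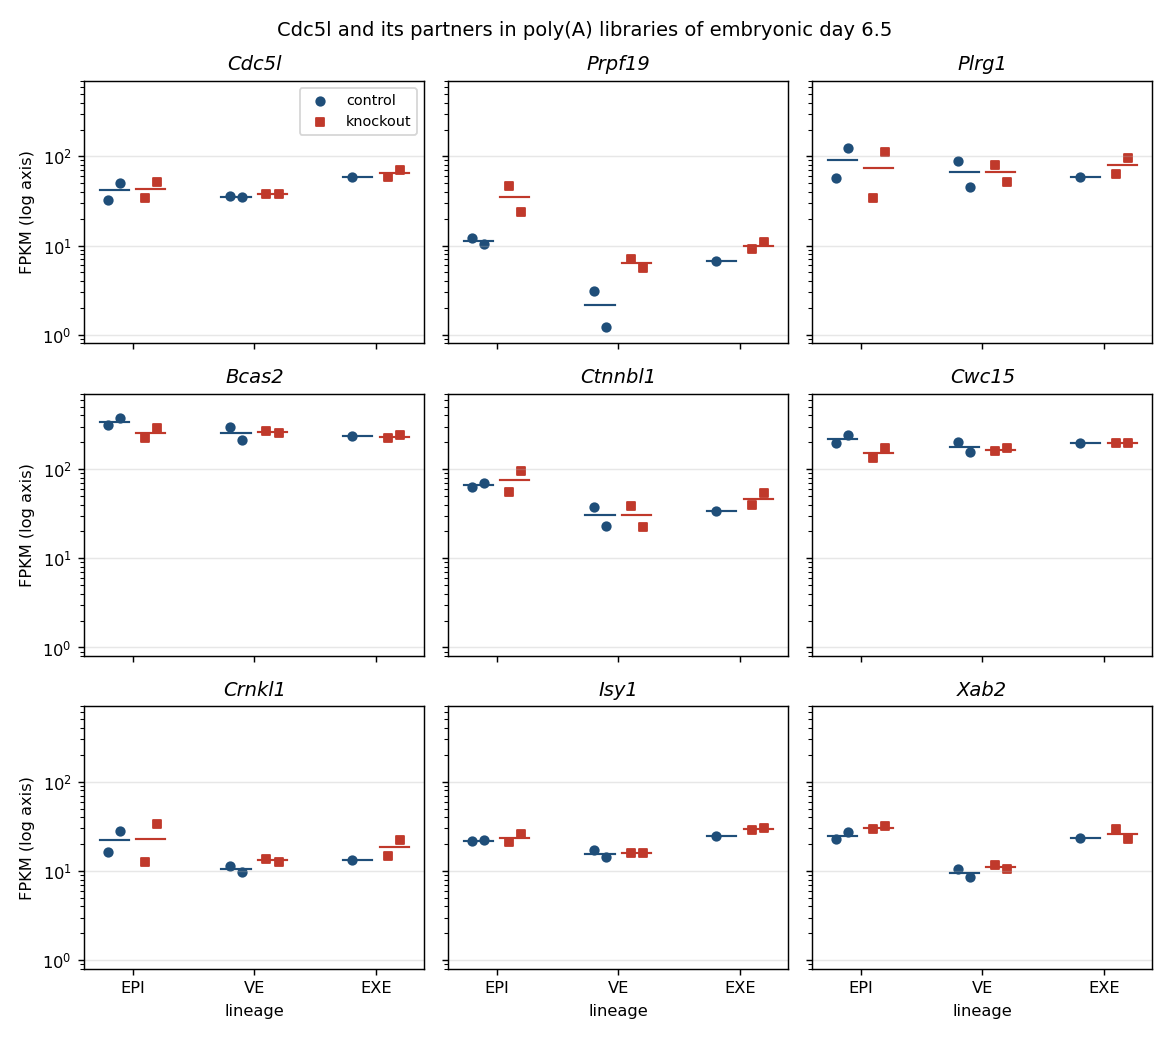
FPKM (log axis) of the 9 genes in every poly(A) library of EPI, VE and EXE, with control libraries as circles, knockout libraries as squares and group means as short lines. Prpf19 is lowest in VE, at 1.22 to 7.03 FPKM, and Cdc5l lies between 32.8 and 71.2 FPKM in all 11 libraries.

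The lineages were compared over both genotypes. Cdc5l was highest in EXE (58.5 to 71.2 FPKM), then EPI (32.8 to 51.6) and VE (35.2 to 38.1). Neither EXE against EPI (0.56, SE 0.25, adjusted p = 0.175), EXE against VE (0.73, SE 0.25, adjusted p = 0.0666) nor VE against EPI (-0.18, SE 0.23, adjusted p = 0.569) passed. With only the lineages compared fitted, Cdc5l passed for EXE against VE (0.73, SE 0.20, adjusted p = 0.0261). Its EXE values did not overlap those of EPI or VE. Between VE and EPI, 3 of 8 partners passed beside 38.4% of all 13914 genes, all lower in VE. Prpf19 was 10.5 to 46.4 FPKM in EPI and 1.22 to 7.03 in VE (-2.13, SE 0.30, adjusted p = 0.000442). Xab2 was 22.7 to 31.6 in EPI and 8.55 to 11.7 in VE (-1.34, SE 0.21, adjusted p = 0.000722), and Ctnnbl1 was 55.6 to 95.4 and 22.2 to 38.3 (-1.21, SE 0.28, adjusted p = 0.00746). None of these 3 overlapped between the lineages.

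Between EXE and EPI, 1 of 8 partners passed beside 19.6% of all genes: Prpf19 was lower in EXE, at 6.68 to 10.9 FPKM (-1.16, SE 0.33, adjusted p = 0.0365). It did not pass with a pseudocount of 0.1 (adjusted p = 0.0567), without a filter on low values (0.0829), with only these lineages fitted (0.0557), or without either EPI control, the first EPI knockout or either EXE knockout replicate (adjusted p = 0.0681 to 0.114). Between EXE and VE, 2 of 8 passed beside 22.6% of all genes, Xab2 (22.6 to 29.7 FPKM in EXE, 1.19, SE 0.23, adjusted p = 0.00442) and Isy1 (24.9 to 30.3 in EXE and 14.2 to 17 in VE, 0.74, SE 0.22, adjusted p = 0.0357). Isy1 did not pass with TPM scaling (adjusted p = 0.0569), median centring (adjusted p = 0.0978) or quantile normalization (adjusted p = 0.0506), or without the second VE control, either VE knockout or either EXE knockout replicate (adjusted p = 0.0774 to 0.109). Prpf19 (0.965, adjusted p = 0.0675) passed for EXE against VE with only these lineages fitted (adjusted p = 0.0446). It also passed without the first VE control replicate (1.19, adjusted p = 0.039). In EXE the 10 VE markers summed to 3610 to 4650 FPKM, against 9040 to 10800 in VE and 9.19 to 41.6 in EPI. Of the 10, 5 reached 1 FPKM in control and 2 in knockout EXE, and Foxa1 was at 0. Rhox5, which is on the VE list, was the highest gene of the second EXE knockout library, at 0.563% of its FPKM sum of 6.407e+05. Whether the VE sum in EXE reflects VE cells was not tested. The 8 epiblast markers summed to 415 to 551 in EXE, against 1730 to 2530 in EPI. The part of these markers in the EXE results was not tested. Total and poly(A) libraries were normalized apart, so levels are not compared across them.

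As a description of whether partners track Cdc5l from library to library, the correlation of log2(FPKM + 1) with Cdc5l over the 11 poly(A) libraries was highest for Isy1 (r = 0.823, rho = 0.718) and lowest for Bcas2 (r = -0.092, rho = -0.136). These libraries share 3 lineages and are not independent points. Over the 15 knockout total RNA libraries r ranged from -0.39 (Xab2) to 0.318 (Crnkl1), over 5 stages. No value is given for the controls, where Cdc5l fell into 9 low libraries and 2 high ones.

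The rest of the splicing machinery was followed in 8 lists of 85 genes, all of which were tested. In FGO 5 rose and 1 fell, beside 13.9% of all genes that passed in either direction. In MII 2 rose and 3 fell (16.8% of all genes), in L1C 16 rose and 1 fell (17.6%), and in E2C 8 rose and 5 fell (13.5%). The median log2 difference of the 85 was 0.124, 0.001, 0.103 and 0.073 at these stages, beside 0, 0, 0.011 and 0 over all genes. In L2C 10 rose and 28 fell, beside 34.2% of all genes, with a median of -0.343 beside 0.034, and in EPI and VE none passed by limma.

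In FGO the exon junction complex, which marks spliced mRNA, held 2 genes that rose and 1 that fell of 6, beside the 13.9% of all genes. Rbm8a, its RNA-binding subunit Y14, rose by 0.62 (SE 0.12, adjusted p = 0.000818), and Magohb, the partner of Y14, fell by 0.48 (SE 0.13, adjusted p = 0.016). Syf2, a factor that binds the PRP19 complex, rose by 0.32 (adjusted p = 0.0155), Prpf3 of the U4/U6 particle rose by 0.40 (adjusted p = 0.0272), and the second-step factor Slu7 rose by 0.34 (adjusted p = 0.0379). In MII, Magohb fell by 0.53, U2af2, the large subunit that reads the polypyrimidine tract, fell by 0.42, and Rbm22, which sits next to the catalytic RNA, rose by 0.26. None of these reached 1 log2 unit.

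In L1C, where 17.6% of all genes passed in either direction, 4 of 8 genes of the U5 particle rose, among them Prpf8, the protein at the heart of the catalytic centre, by 0.58 (SE 0.10, adjusted p = 0.000303) and Cd2bp2 by 0.52. Of the 15 genes of U2 and SF3, 4 rose, with Puf60 by 0.70 and U2af1 by 0.41. In E2C, Eftud2, the U5 GTPase, rose by 0.92 (SE 0.17, adjusted p = 0.00111) and Snrnp200, the U5 helicase, rose by 0.53. Of the U1 genes, Snrpc fell by 1.44 and Snrpa fell by 0.94 in E2C. Rbm22 rose by 0.71 and Ppil1 fell by 0.89 among the PRP19-associated factors.

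In L2C, where 34.2% of all genes passed, 4 of the 8 genes of U5 fell and none rose. Among them, Ddx23, a helicase that helps form the active spliceosome, fell by 1.29 (SE 0.17, adjusted p = 8.35e-06), and Snrnp40 fell by 0.79. Of the 10 catalytic-step factors, 4 fell and none rose. Dhx8, the helicase that releases mRNA, fell by 1.25, and Tfip11, which takes part in spliceosome disassembly, fell by 1.16. In U2 and SF3, Sf3b6 fell by 1.61 and Snrpb2 rose by 0.96. The kinase Prpf4b fell by 1.43 and Snu13 fell by 1.24 among 7 of 17 U4/U6 and tri-snRNP genes that fell and 2 that rose. Of the 14 PRP19-associated factors, 3 rose and 4 fell, with Rbm22 at -0.70 and Ppil1 at -0.69.

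The 26 total RNA libraries, which include those that chose Cdc5l and fall into 9 with low Cdc5l and the rest, were also ranked by likeness to it as a description. The genes of highest r, among 7013 genes that averaged at least 5 FPKM, were Cecr2 (r = 0.85), Ttll4 (r = 0.813), Atf4 (r = 0.775), Tgif2 (r = 0.719) and Nptn (r = 0.719). Cecr2 encodes a bromodomain protein of a chromatin remodeller and Atf4 a stress-response transcription factor. Their ranges were much narrower than that of Cdc5l. Cecr2 averaged 94.1 FPKM in control and 136 in knockout FGO, 99.2 and 126 in L1C, and 134 and 146 in L2C. Nptn, a cell-adhesion protein, averaged 50.3 and 66.0 in FGO and 45.2 and 82.0 in L2C. Over the same libraries the r of the 8 partners lay between -0.407 and 0.067.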

How the data were processed

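Values of 37 mouse RNA-seq libraries were used as the authors deposited them, as FPKM per gene in a table of 26 total RNA libraries (SMART-Seq Stranded) and a table of 11 poly(A) libraries (SMART-Seq mRNA with Nextera XT), per the labels. The submitters' processing notes name Trim Galore 0.6.6, STAR 2.7.9, StringTie 2.1.7 and the build mm10; the annotation is not given in the sources used here. In the deposited column of control EPI replicate 1, the authors' table lists Gm24888 at -1e-06 FPKM, which was set to 0. No column was left unmatched (0). FPKM keeps no read numbers, so depth is unknown and no counting interval is given.

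Of the gene identifiers, 54349 are in GENCODE M21 with the same version, which gave positions (GRCm38). Log2(FPKM + 1) of genes that reached 1 FPKM in 2 or more libraries was fitted with limma 3.58.1 in R 4.3.3 (group means, eBayes with trend, Benjamini-Hochberg over all genes, threshold 0.05). The 26 total RNA libraries were fitted together with array weights by stage, since the spread differed: a typical gene had an SD of 0.12 in FGO and 0.258 in E2C. EPI and VE (8 libraries) gave the knockout effects and all 11 poly(A) libraries the lineage differences. The scripts were tested on simulated data. Tables and plots used Python 3.11.15, pandas 2.3.3 and matplotlib 3.10.9.

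The genes named are the 9 members, per pathway list and knockout comparison at most the 2 called genes with the largest change, the 5 genes most correlated with Cdc5l (averaging at least 5 FPKM), its 3 nearest protein-coding neighbours on each side, and copies that share its sequence. B230354K17Rik was added as it overlaps Cdc5l. The members, lists and tests were chosen with earlier results of these data known. Alternatives were other pseudocounts, filters, scalings, fits and left-out replicates.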

Additional observations from a re-analysis of the deposited data

Results flagged for a closer look

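The knockout effect on Cdc5l differed between early and late 2-cell embryos by -2.92 on the log2(FPKM + 1) scale by limma's interaction contrast (SE 0.49, adjusted p = 0.000253). All 3 knockout libraries were above all controls in E2C, and the ranges overlapped in L2C. The E2C effect is not shown to be independent of the oocyte values that chose Cdc5l. With the 10 copies added to Cdc5l the L2C ranges did not overlap, and the difference was -1.90 (adjusted p = 0.00928). The knockout effect on Ctnnbl1 differed between the same stages by -1.28 (SE 0.27, adjusted p = 0.00215), with all 3 knockout libraries below both controls in L2C. No group had more than 3 libraries, so no library was tested as an outlier.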

How the results depend on the processing

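The knockout effect on Cdc5l kept its direction and side of the threshold in L1C and E2C under every alternative run, and stayed short of it in L2C, EPI and VE. Leaving out replicates in turn gave 3.87 to 4.29 in L1C, 2.91 to 3.50 in E2C, 0.13 to 0.29 in L2C, -0.26 to 0.36 in EPI and 0.09 to 0.10 in VE. The Cdc5l effect in EPI, which was never called, thus changed sign, as it did with median centring in EPI (-0.10) and VE (-0.002). From FGO to MII, Cdc5l went from 0.16 to -0.09 in controls without the second MII replicate and from 0.13 to -0.09 in knockouts without the second FGO replicate. No called result changed sign. The number of partners called for a knockout effect was 1 with median centring in FGO (main 0), 1 with quantile normalization in MII (main 0), and in E2C (main 0) was 1 with a stricter filter (an average of 5 FPKM or more), TPM scaling, median centring or quantile normalization and 3 without stage weights. In L2C (main 3) it was 0 without a filter on low values, and the cause was not tested. Leaving out replicates gave 0 to 0 partners in FGO and MII, 0 to 1 in L1C, 0 to 2 in E2C, 2 to 3 in L2C and 0 to 0 in EPI and VE.

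For the change of the effect from E2C to L2C (main 1), 2 partners were called with the stricter filter or median centring, 3 with quantile normalization or only the stages compared, 4 without stage weights, and 1 to 2 with replicates left out. The other changes of effect stayed at 0 to 0 there. For control steps, FGO to MII (main 2) gave 1 with the stricter filter, without stage weights, with only the stages compared and with each replicate left out (1 to 1). MII to L1C (main 2) gave 1 with the stricter filter or without stage weights (1 to 2 left out). L1C to E2C gave 5 to 5 left out. E2C to L2C (main 2) gave 1 without a filter, 5 with TPM scaling or median centring, and 4 with quantile normalization or without stage weights (2 to 3 left out). For knockout steps, FGO to MII (main 2) gave 1 without a filter, with the stricter filter, TPM scaling, median centring, no stage weights or only the stages compared (1 to 3 left out). MII to L1C (main 1) gave 2 with the stricter filter, 4 with median centring, and 3 with quantile normalization or only the stages compared (1 to 2 left out). L1C to E2C gave 5 to 6 left out, and E2C to L2C (main 5) gave 3 without a filter (3 to 5 left out).

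Between lineages, EXE against EPI (main 1) gave 0 with a pseudocount of 0.1, no filter or only the lineages compared, and 2 with quantile normalization (0 to 1 left out). EXE against VE (main 2) gave 1 with TPM scaling, median centring or quantile normalization (1 to 3 left out), and VE against EPI gave 3 to 4 left out. Cdc5l was lowest in 9 of 9 control FGO to E2C libraries among the 6 core members, against 4 among all 9. Median centring moved the median of all genes by up to -0.305 (E2C to L2C, knockout) and 0.194 (L1C to E2C, knockout).

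Deviations of same-numbered libraries correlated between -0.077 and 0.142 at the early stages, so that the replicate numbers are not shown to pair the libraries there. The correlation was higher at day 6.5, at 0.593 in EPI and 0.429 in VE. With 2 libraries per group the deviations mirror each other, so each lineage gives 1 value. Whether the numbers mark pairs is not given in the sources used here. With the replicate block, genes called for the knockout effect numbered 1588 in FGO, 2338 in MII, 2260 in L1C, 1532 in E2C and 4008 in L2C, against 2107, 2545, 2675, 2046 and 5197. In EPI they numbered 4 against 0 and in VE 1 against 1, with 0 partners called in either. For the change of the effect from L1C to E2C they numbered 165 against 509. Prpf19 in L2C had -0.36 (adjusted p = 0.0934). For lineages, a replicate block by number within genotype, chosen after seeing the data, gave 1 partner for EXE against VE (Isy1 0.72, adjusted p = 0.119). No block was run for the stage steps, because the number within a stage is not shared between stages.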
